A study of Mus musculus with 14 samples.

Results

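The genes of inherited dystonia and related movement disorders were followed in striatum and cerebellum of mice with and without conditional loss of Thap1. The set was drawn up by gene name and held 37 genes of the 23337 gene symbols in the count files. It comprises genes mutated in monogenic dystonia, genes of neighbouring movement disorders, and relatives and activators of the torsin Tor1a. All 37 were found, with Kmt2b under its earlier symbol Wbp7 and Cox20 under Fam36a. No cut on a measured value entered the choice, though earlier results of these data were known when it was made.

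Striatum was taken from 3 wildtype (WT) and 3 Thap1 conditional knockout (cKO) mouse samples, and cerebellum from 4 WT and 4 cKO samples. All 14 came from microdissected tissue of animals on the C57Bl/6 background at an age of 6 months, and the WT samples were littermate controls. Which Cre line was used, which exons of Thap1 it removes and which cells lose them is not given in the sources used here. Separate animals per replicate are not stated either, and a p-value then measures only the spread among these samples, which may be technical.

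Dystonia is a disorder of sustained or repetitive muscle contractions that force abnormal movements and postures. The genes that cause it when mutated fall into a few systems: the torsin ATPases of the nuclear envelope and endoplasmic reticulum, the synthesis of dopamine with its cofactor tetrahydrobiopterin, the G protein and cAMP signalling of striatal projection neurons, ion channels and transmitter release, transcription, endolysosomal trafficking, and mitochondrial metabolism. THAP1 is itself a dystonia gene, of the form called DYT6. It encodes a zinc-finger transcription factor that recognises DNA with a GGCA core, and the promoter of TOR1A, the gene of DYT1 dystonia, has been studied as one of its targets.

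The libraries held 12595941 to 13499875 counts in WT striatum, 12659013 to 14258141 in cKO striatum, 19458954 to 24331760 in WT cerebellum and 19860775 to 28099205 in cKO cerebellum. Levels are CPM, counts scaled to a common library size with TMM factors, which correct for differences in library composition. The summed level of 9 striatal projection neuron markers was 6664 to 8973 CPM in WT striatum and 245 to 302 CPM in WT cerebellum. That of 8 granule cell markers was 293 to 447 CPM and 5819 to 6619 CPM, and the granule cell gene Gabra6 and the Purkinje cell gene Pcp2 were at 0 in striatum. Striatal WT replicate 1 stood apart from the other 5 striatal libraries, at −41.6 against 5.44 to 11.7 on a first principal component with 53% of the variance. Thap1 was lower in cKO libraries of both tissues, with no overlap. In striatum its level was 13.2, 14.4 and 15.3 CPM in WT and 5.25, 7.65 and 3.77 CPM in cKO, which is 38.8% of WT. In cerebellum it was 10.3, 8.15, 10.5 and 8.32 CPM in WT and 7.34, 7.45, 7.79 and 6.85 CPM in cKO, which is 79.0% of WT. The exact two-sided permutation p was 0.1 and 0.0286, the smallest that each design allows. Since the deleted part is unknown, reads from the rest of the transcript can be among these counts.

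RefSeq promoters, from 250 bases before to 50 bases after an annotated start on GRCm38.p6, were searched for TNNNGGCA and its reverse complement TGCCNNNA, a loose form of the THAP1 recognition sequence. Of the 37 genes 29 had a promoter in the table, and 19 of these (65.5%) held the letters in at least 1 promoter, against 12274 of 27025 genes (45.4%). Counted by promoter, 22 of 41 (53.7%) held them, against 13784 of 32851 promoters (42.0%). Both forms are the same motif read on either strand, and a match is a description of the letters. The promoter bases outside annotated exons are printed for Tor1a, the founding gene of the set, and for Ano3 and Tubb4a, which differed between genotypes in cerebellum, with the motif in capitals. Prrt2, the other gene that differed, had none in the table.
Tor1a (chr2:30967934-30968168, minus strand): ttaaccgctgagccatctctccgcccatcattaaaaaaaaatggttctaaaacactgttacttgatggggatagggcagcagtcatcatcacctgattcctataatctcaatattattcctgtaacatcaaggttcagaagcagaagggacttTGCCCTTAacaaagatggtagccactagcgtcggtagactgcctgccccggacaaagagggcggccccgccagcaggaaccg
Ano3, inner start (chr2:110840060-110840309, minus strand): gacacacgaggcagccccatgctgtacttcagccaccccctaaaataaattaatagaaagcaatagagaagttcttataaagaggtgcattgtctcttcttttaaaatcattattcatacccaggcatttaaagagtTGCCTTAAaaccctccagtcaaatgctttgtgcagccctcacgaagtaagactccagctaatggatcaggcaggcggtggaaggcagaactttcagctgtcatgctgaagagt
Tubb4a (chr17:57087783-57087850, minus strand): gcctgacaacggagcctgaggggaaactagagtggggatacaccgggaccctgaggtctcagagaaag
The Tor1a match began 97 bases before the start and the Ano3 match 113 bases before the inner start. The outer promoter of Ano3 and the promoter of Tubb4a held none in these windows.

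Few of these genes passed the adjusted test between Thap1 cKO and WT samples, at a share near that of all genes. In cerebellum the anoctamin gene Ano3 and the presynaptic gene Prrt2 rose and the tubulin gene Tubb4a fell. They make up 8.33% of the set's genes tested, against 7.59% of all genes. In striatum no gene of the set passed the test, against 0.384% of all genes. A gene was called at an adjusted p under 0.05 in edgeR's quasi-likelihood test with Benjamini-Hochberg adjustment over all genes tested. Of the 37 genes 36 could be tested, and the dopamine transporter gene Slc6a3, with 0 to 4 counts per library, could not.

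In striatum edgeR called 0 of 36 genes, against 0.384% of 14080 genes tested (0.0639% higher in cKO and 0.32% lower). At an unadjusted p under 0.05 there were 5 (13.9%; Prrt2, Mecr, Qdpr, Pla2g6 and Kcna1), against 7.24% of all genes. DESeq2 and limma-voom called 0 as well, and 2 (Prrt2 and Mecr) were called when all 14 libraries were fitted in 1 model. The median log2 fold change, positive where cKO is higher, was −0.01 over the set and 0.00 over all genes. The genotypes did not overlap for 6 of 36 genes (16.7%), against 15.1% of all genes. cKO lay above WT for Pts, Prrt2, Prkra and Mecr, as for 6.85% of all genes, and below it for Adcy5 and Pla2g6, as for 8.2%.

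In cerebellum 3 of 36 genes were called (8.33%), against 7.59% of 14775 genes tested, 2 higher (2.63% of all genes were) and 1 lower (4.96%). At an unadjusted p under 0.05 there were 13 (36.1%), against 22.5% of all genes. The median log2 fold change was −0.02 over the set and 0.00 over all genes. The genotypes did not overlap for 7 of 36 genes (19.4%), against 14.3% of all genes. cKO lay above WT for Ano3, Prrt2 and Vps41, as for 6.38% of all genes, and below it for Kcna1, Atp13a2, Mecr and Tubb4a, as for 7.96%. The share called lies near that of all genes, and the share at an unadjusted p under 0.05 lies above it. The 3 calls were made whichever library was left out, and none was made when both tissues were fitted in 1 model with a common spread, where adjusted p was 0.369 for Ano3, 0.129 for Prrt2 and 0.157 for Tubb4a. The spread between replicates was larger in striatum, with a common biological coefficient of variation of 0.135 against 0.0722 in cerebellum.

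How closely the WT level was kept can be read from the intervals. The 95% interval of the cKO level lay within 80% to 125% of WT for 29 of 36 genes in cerebellum, against 66.5% of all genes. The 7 others were Ano3, Prrt2, Tubb4a, Mecr, Gch1, Ddc and Col6a3. In striatum the interval lay within these bounds for 11 of 36 genes, against 21.8% of all genes. For the other 25 genes it reached past at least 1 bound, through its width, an estimate away from WT, or both. It lay wholly above WT for Prrt2 (110% to 153%) and Mecr (109% to 171%). For Qdpr (64.4% to 96.2%), Pla2g6 (62.4% to 99.8%) and Kcna1 (69.6% to 99.98%) it lay wholly below. These intervals are not adjusted for the number of genes, and none of these changes passed the adjusted test.

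**Figure D1:**
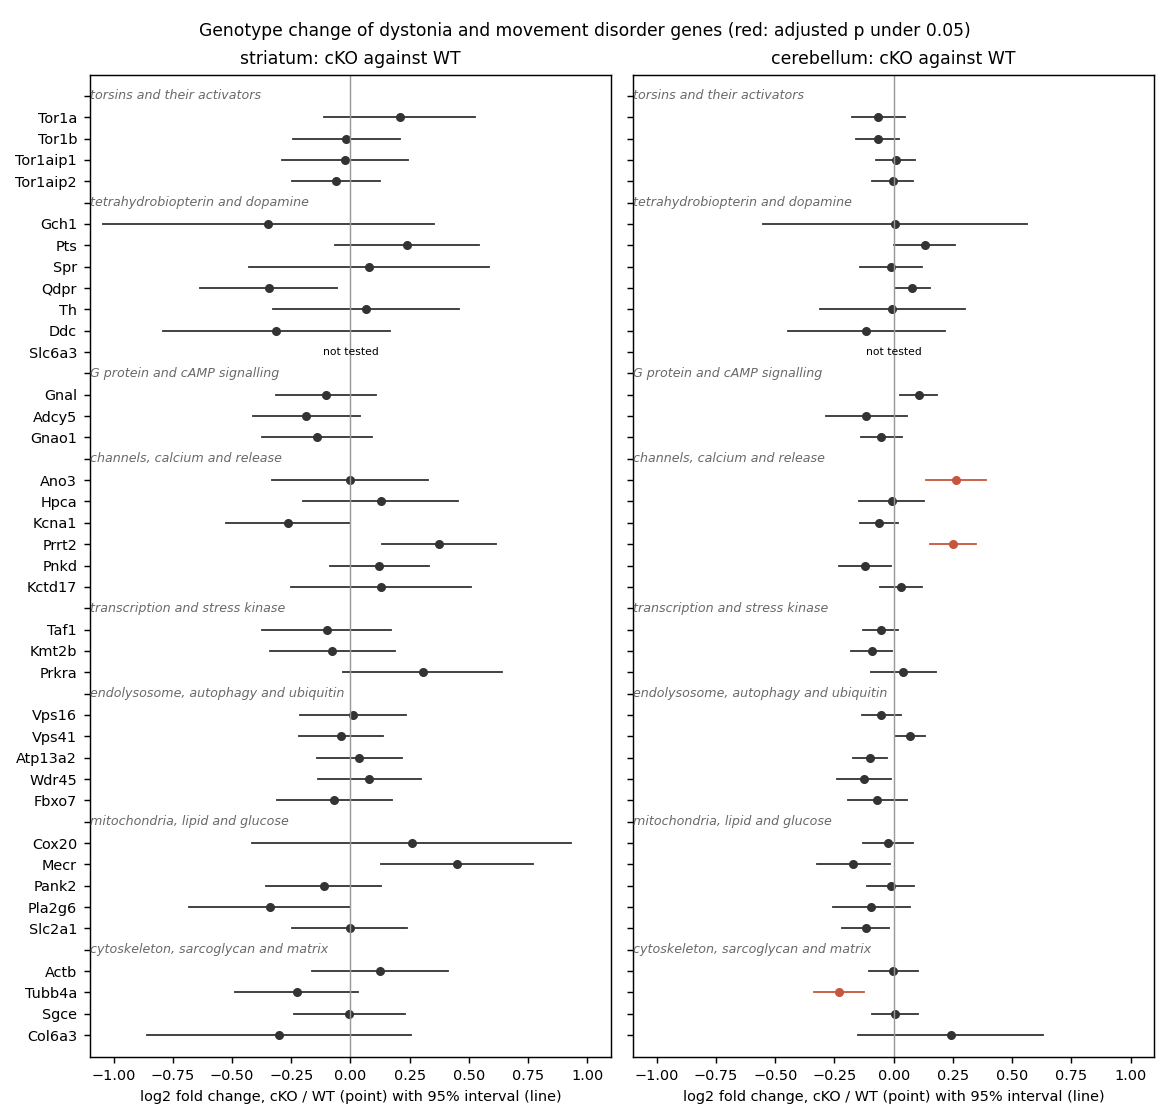
Log2 fold change of each tested gene in cKO against WT, grouped by role, in striatum (left) and cerebellum (right), with 95% intervals from edgeR as bars and called genes in red. The intervals are wider in striatum, where no gene is red, and the red points in cerebellum are Ano3 and Prrt2 above 0 and Tubb4a below 0.

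The plot of log2 fold changes shows this gene by gene. In cerebellum most points lie close to 0, and the wide bars there belong to genes with few counts such as Gch1 and Col6a3. In striatum the points spread further, and so do their bars.

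Whether the genotype effect differed between the tissues was tested in 1 model of all libraries, and a positive value means a higher log2 fold change in cerebellum. Whether striatal and cerebellar samples came from the same animals is not stated, and here and between WT tissues all libraries were treated as independent. edgeR called 0 of 36 genes, against 0.39% of 15401 genes tested (0.24% positive and 0.149% negative), and 7 (19.4%) were at an unadjusted p under 0.05, against 11.6% of all genes. limma-voom called 0 and DESeq2 called 1, the mitochondrial gene Mecr. The changes of Ano3, Prrt2 and Tubb4a in cerebellum are therefore not shown to differ from those in striatum, with differences of 0.25 (adjusted p = 0.572), −0.14 (0.655) and −0.02 (0.97) by edgeR.

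Torsins are ATPases of the endoplasmic reticulum and nuclear envelope that work only with a membrane-bound activator, LAP1 (Tor1aip1) or LULL1 (Tor1aip2). None of these 4 genes was called in a genotype comparison by edgeR, and 0 were at an unadjusted p under 0.05 in either tissue. DESeq2 and limma-voom also called 0 there. Over all genes the unadjusted share was 7.24% in striatum and 22.5% in cerebellum. Counts of the groups below are to be set beside these shares. Tor1a (chromosome 2, 30960627 to 30967933, GRCm38) stood at 17.2, 24.5 and 21.6 CPM in WT striatum and at 25.8, 23.4 and 24.0 CPM in cKO striatum. Its cerebellar levels were 27.4, 25.1, 25.8 and 26.4 CPM in WT and 24.7, 25.8, 25.7 and 23.9 CPM in cKO. The genotypes overlapped in both tissues, and the lowest striatal value belongs to WT replicate 1. The striatal log2 fold change of 0.21 (SE 0.141) had an adjusted p of 0.778, and the cerebellar one of −0.07 (SE 0.0531) had 0.509, both by edgeR. The 95% interval of the cKO level was 92.5% to 144% of WT in striatum and 88.4% to 103% in cerebellum. Tor1b, the closest relative of Tor1a, had log2 fold changes of −0.02 and −0.07, Tor1aip1 of −0.02 and 0.01, and Tor1aip2 of −0.06 and 0.00. The last 2 genes share 699 exon bases on opposite strands, and the strand setting of the counting is not given, so their levels are uncertain.

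Tetrahydrobiopterin is the cofactor of tyrosine hydroxylase (Th), the rate-limiting enzyme of dopamine synthesis. Gch1, Pts and Spr make it, Qdpr regenerates it, and Ddc converts L-DOPA to dopamine. None of the 6 tested genes of this group was called in either tissue by edgeR, DESeq2 or limma-voom, with 1 in striatum and 2 in cerebellum at an unadjusted p under 0.05. Gch1, the gene of DOPA-responsive dystonia, had among the lowest levels of the set, at 1.22, 1.33 and 1.12 CPM in WT striatum and 0.818, 1.21 and 0.863 CPM in cKO striatum. In cerebellum it stood at 1.65, 1.128, 1.18 and 0.828 CPM in WT and at 0.843, 0.828, 1.54 and 1.46 CPM in cKO. The ranges overlapped in both tissues. By edgeR, Gch1 had a log2 fold change of −0.35 with SE 0.309 in striatum (adjusted p = 0.803) and of 0.01 with SE 0.263 in cerebellum (adjusted p = 0.993). The 95% interval of the striatal level ran from 48.4% to 128% of WT, at 11 to 18 counts per library.

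Th transcript stood at 8.31, 9.85 and 12.5 CPM in WT striatum and 10.4, 11.5 and 10.3 CPM in cKO striatum. Its cerebellar levels were 12.8, 11.4, 9.02 and 9.23 CPM in WT and 10.8, 8.05, 11.5 and 11.8 CPM in cKO. The cKO values lay inside the WT range in striatum, and the ranges overlapped in cerebellum. By edgeR, Th had a striatal log2 fold change of 0.07 with SE 0.173 (adjusted p = 0.924) and a cerebellar one of −0.01 with SE 0.139 (adjusted p = 0.988). The cell bodies of nigrostriatal dopamine neurons lie in the midbrain, and 7 of their markers summed to 49.2 to 60.8 CPM in WT striatum and 48.9 to 81.5 CPM in cKO striatum. Of these, Foxa1 and Foxa2 were at 0 in all striatal libraries and Pitx3 in the WT ones, and Aldh1a1 and Slc10a4 made up most of the sum. In WT cerebellum the 7 markers summed to 421 to 449 CPM, so the sum does not stand for dopamine neurons alone. The part of these markers in the Th level was not tested.

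Qdpr, dihydropteridine reductase, was singled out after its values were seen. Its striatal level was 144, 177 and 198 CPM in WT and 131, 151 and 126 CPM in cKO, and its cerebellar level was 159, 170, 159 and 164 CPM in WT and 165, 172, 181 and 171 CPM in cKO. The ranges overlapped in both tissues, in striatum through WT replicate 1. The striatal log2 fold change of −0.35 did not pass (SE 0.128, adjusted p = 0.599 by edgeR), and it passed without that library, with an adjusted p of 0.0431. The difference between the tissues likewise changed from 0.41 (adjusted p = 0.198) to an adjusted p of 0.00452 without it. Pts had log2 fold changes of 0.24 in striatum and 0.13 in cerebellum, Spr of 0.08 and −0.01, and Ddc of −0.31 and −0.12.

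In striatal projection neurons dopamine and adenosine receptors act through the stimulatory G protein subunit Gαolf (Gnal) on adenylyl cyclase 5 (Adcy5), while Gnao1 encodes an inhibitory G protein subunit. None of these 3 genes was called in either tissue by edgeR, DESeq2 or limma-voom, with 0 in striatum and 1 in cerebellum (Gnal) at an unadjusted p under 0.05. Adcy5 stood at 1874, 1720 and 1973 CPM in WT striatum and at 1489, 1705 and 1698 CPM in cKO striatum. All 3 cKO values lay below all WT values, and the log2 fold change of −0.19 did not pass (SE 0.10, adjusted p = 0.749 by edgeR). In cerebellum Adcy5 stood at 54.8, 71.7, 57.2 and 57.2 CPM in WT and at 59.2, 54.1, 55.8 and 53.0 CPM in cKO, which overlapped (log2 fold change −0.12, SE 0.0776, adjusted p = 0.417).

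Gnal stood at 1383, 1219 and 1277 CPM in WT striatum and at 1148, 1198 and 1262 CPM in cKO striatum. The cerebellar levels were 209.8, 229.8, 215 and 222 CPM in WT and 231, 244, 225 and 244 CPM in cKO. The cKO samples leaned low in striatum and high in cerebellum, with overlap in both. The striatal log2 fold change of −0.10 (SE 0.0929) had an adjusted p of 0.803 by edgeR. The cerebellar one of 0.11 (SE 0.0375) had 0.105, and it passed without WT replicate 2 (adjusted p = 0.0442). Gnal shares 852 exon bases with Mppe1 on the other strand, so its count is uncertain. Gnao1 had log2 fold changes of −0.14 in striatum and −0.05 in cerebellum.

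**Figure D2:**
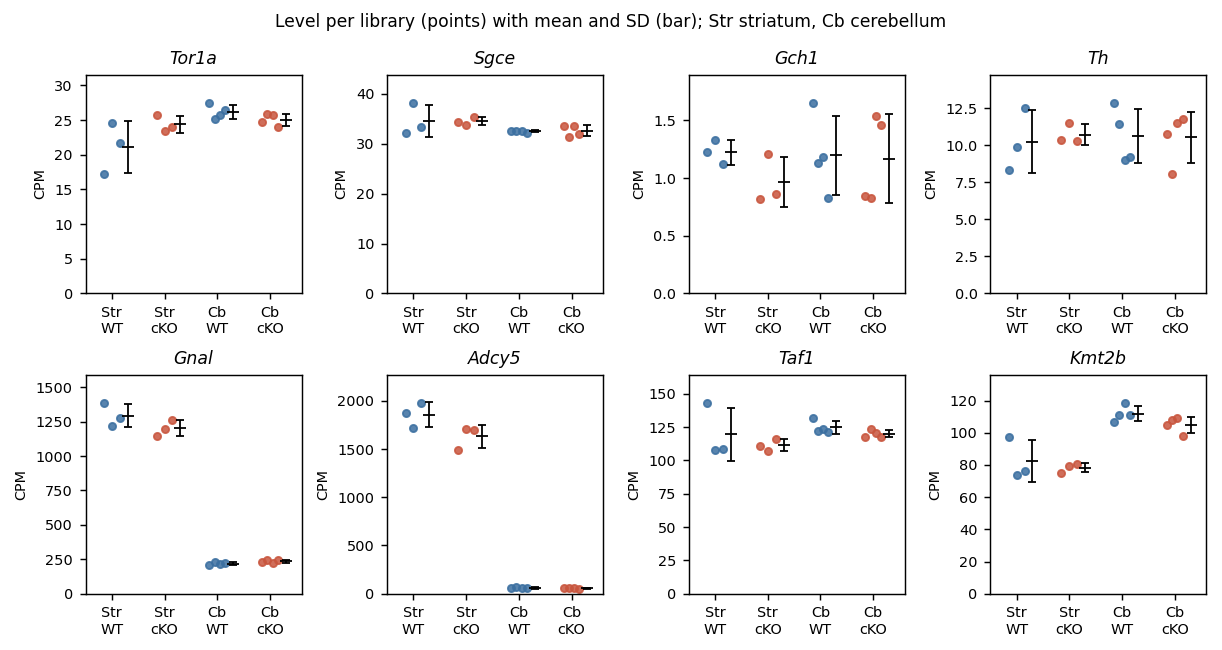
Level in CPM per library of Tor1a, Sgce, Gch1, Th, Gnal, Adcy5, Taf1 and Kmt2b in striatum and cerebellum, with 1 point per library and the mean and SD of each group as bars. The WT and cKO points of a tissue overlap in every panel except Adcy5 in striatum, and the step between tissues is large for Gnal and Adcy5.

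The plot of these 8 genes places the genotype difference beside the regional one. For Adcy5 the WT libraries alone span 1720 to 1973 CPM in striatum, while the whole cerebellar range lies between 53.0 and 71.7 CPM.

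Ano3 encodes an anoctamin of the endoplasmic reticulum linked to calcium signalling, Hpca the neuronal calcium sensor hippocalcin, and Kcna1 a potassium channel of axons. Prrt2 is a presynaptic protein that acts on SNARE-dependent release, Pnkd is mutated in paroxysmal nonkinesigenic dyskinesia, and Kctd17 is an adaptor of a ubiquitin ligase. In this group 2 of 6 genes rose in cerebellum, Ano3 and Prrt2 (2.63% of all genes rose), and 0 fell (4.96%).

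Prrt2 (chromosome 7, 127017531 to 127021211, GRCm38) stood at 481, 499, 508 and 548 CPM in WT cerebellum. In cKO cerebellum it stood at 579, 604, 615 and 622 CPM. All 4 cKO values lay above all WT values. Prrt2 rose to 119% of WT (log2 fold change 0.25, SE 0.0453, adjusted p = 0.00257 by edgeR), with an adjusted p of 0.00104 to 0.0109 when 1 library was left out. In striatum it stood at 198, 236 and 214 CPM in WT and at 249.7, 309.5 and 281 CPM in cKO. There too all cKO values lay above all WT values, and the log2 fold change of 0.37 did not pass (SE 0.107, adjusted p = 0.367), except in 1 model of all libraries (adjusted p = 0.0218). The annotation places a second coding gene, Gm42742, over 2918 of the 3159 exon bases of Prrt2 on the same strand. It is no symbol of the count files, so reads of either transcript can be in this count.

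Ano3 (chromosome 2, 110655201 to 110950923, GRCm38) stood at 35.0, 33.7, 38.3 and 41.1 CPM in WT cerebellum and at 41.7, 44.0, 46.3 and 45.8 CPM in cKO cerebellum. The groups did not overlap, though the highest WT value lay just below the lowest cKO value. Ano3 rose to 120.0% of WT (log2 fold change 0.26, SE 0.0596, adjusted p = 0.0119 by edgeR), with an adjusted p of 0.00322 to 0.0435 when 1 library was left out. In striatum, where its level is several times higher, it stood at 317, 255 and 272 CPM in WT and 222, 325 and 296 CPM in cKO. The cKO values straddled the WT values, and the cKO level was 99.9% of WT with a 95% interval of 79.5% to 125%. The summed level of 8 granule cell markers in cerebellum was 5819 to 6619 CPM in WT and 5586 to 5957 CPM in cKO, with 2 of 8 called lower, and that of 7 Purkinje cell markers was 11689 to 12394 CPM and 12513 to 13570 CPM, with 1 called higher. None of these markers was at 0 there, and their part in the changes of Prrt2 and Ano3 was not tested.

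**Figure D3:**
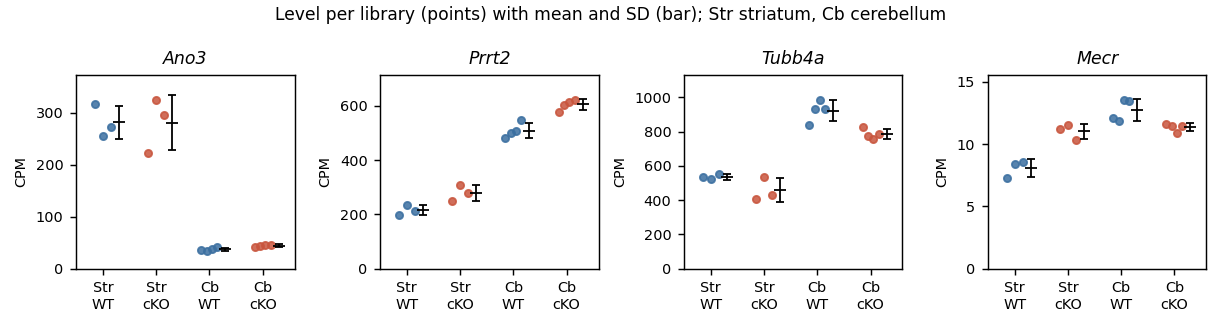
Level in CPM per library of Ano3, Prrt2, Tubb4a and Mecr in striatum (Str) and cerebellum (Cb), with 1 point per library and the mean and SD of each group as bars. In cerebellum the cKO points lie above the WT points for Ano3 and Prrt2 and below them for Tubb4a and Mecr, and Mecr lies the other way in striatum.

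Ano3, Prrt2, Tubb4a and Mecr are drawn in that plot on axes that start at 0, so the small size of the cerebellar steps against the level itself is visible. Of the rest of the group, Kcna1 had log2 fold changes of −0.26 in striatum and −0.06 in cerebellum, Pnkd of 0.12 and −0.12, Hpca of 0.13 and −0.01, and Kctd17 of 0.13 and 0.03. None of these was called. Pnkd passed in cerebellum only when WT replicate 1 was left out.

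Taf1, the gene of X-linked dystonia-parkinsonism, encodes the largest subunit of the general transcription factor TFIID. Kmt2b encodes a histone H3 lysine methyltransferase, and Prkra an activator of the stress kinase PKR. None of the 3 was called in either tissue by edgeR, DESeq2 or limma-voom, with 0 in striatum and 1 in cerebellum (Kmt2b) at an unadjusted p under 0.05. Taf1 stood at 143, 108 and 108 CPM in WT striatum and 111, 107 and 116 CPM in cKO striatum. In cerebellum it stood at 132, 122, 124 and 121 CPM in WT and 118, 124, 121 and 118 CPM in cKO. The ranges overlapped, and in striatum WT replicate 1 was the high value. By edgeR, Taf1 had a striatal log2 fold change of −0.10 with SE 0.12 (adjusted p = 0.83) and a cerebellar one of −0.06 with SE 0.0353 (adjusted p = 0.385).

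Kmt2b stood at 97.4, 73.8 and 76.4 CPM in WT striatum and 75.2, 79.1 and 80.5 CPM in cKO striatum, with WT replicate 1 again the high value. Its cerebellar levels were 107, 111, 118 and 111 CPM in WT and 105, 108, 109 and 98.2 CPM in cKO, which overlapped. Its striatal log2 fold change was −0.08 (SE 0.116) with an adjusted p of 0.871 by edgeR. Its cerebellar one was −0.09 (SE 0.041) with 0.189, and the 95% interval there was 88.3% to 99.6% of WT. Prkra had log2 fold changes of 0.30 in striatum, without overlap of the genotypes, and 0.04 in cerebellum.

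Vps16 and Vps41 are subunits of complexes that tether late endosomes and lysosomes, Atp13a2 is a lysosomal polyamine transporter, Wdr45 acts in autophagosome formation and Fbxo7 in ubiquitin ligation. None of these 5 genes was called in either tissue by edgeR, DESeq2 or limma-voom, with 0 in striatum and 3 in cerebellum (Vps41, Atp13a2 and Wdr45) at an unadjusted p under 0.05. Their log2 fold changes lay between −0.07 and 0.08 in striatum and between −0.13 and 0.07 in cerebellum. Atp13a2 ranged from 138 to 147 CPM in WT cerebellum and from 128 to 138 CPM in cKO, without overlap (log2 fold change −0.10, SE 0.0343, adjusted p = 0.0928 by edgeR). Vps41 ranged from 175 to 183 CPM in WT and from 184 to 193 CPM in cKO there, also without overlap (log2 fold change 0.07, SE 0.0304, adjusted p = 0.189).

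Mecr is an enoyl reductase of mitochondrial fatty acid synthesis that is mutated in a childhood dystonia with optic atrophy. Pank2 makes coenzyme A, Pla2g6 is a phospholipase, Cox20 assembles cytochrome c oxidase, and Slc2a1 carries glucose across the blood-brain barrier. None of the 5 was called in either tissue by edgeR, DESeq2 or limma-voom, with 2 in each tissue at an unadjusted p under 0.05. Mecr (chromosome 4, 131843470 to 131867786, GRCm38) had the largest striatal log2 fold change of the set. It stood at 7.25, 8.45 and 8.54 CPM in WT striatum and 11.2, 11.5 and 10.4 CPM in cKO striatum. In cerebellum it stood at 12.1, 11.9, 13.6 and 13.5 CPM in WT and 11.6, 11.5, 10.9 and 11.4 CPM in cKO. The genotypes were apart in both tissues and in opposite directions, cKO above WT in striatum and below it in cerebellum.

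Neither change of Mecr passed alone. The striatal log2 fold change was 0.45 (SE 0.142) with an adjusted p of 0.46, and the cerebellar one −0.17 (SE 0.0731) with 0.177, both by edgeR. The difference between the tissues was −0.64 (SE 0.133) and lay just short of the threshold, with an adjusted p of 0.0515. It did not pass with limma-voom (adjusted p = 0.0633). Nor did it in edgeR without a low-count filter (0.0719) or with the replicate number as a block (0.169). It passed with DESeq2 (adjusted p = 0.00919) and in edgeR without striatal WT replicate 2 (0.0374). Without another library the adjusted p in edgeR was 0.0599 to 0.133. With all libraries in 1 model the striatal change passed as well (adjusted p = 0.0321). The other genes of the group had log2 fold changes of −0.34 to 0.26 in striatum and −0.12 to −0.01 in cerebellum. Cox20 shares 804 of its 883 exon bases with Hnrnpu on the other strand, and Pank2 shares 1125 with Rnf24, so both counts are uncertain. Slc2a1 passed in cerebellum only without WT replicate 4.

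Tubb4a encodes a beta-tubulin of neurons and oligodendrocytes that is mutated in dystonia type 4 and in a hypomyelinating leukodystrophy. Sgce encodes epsilon-sarcoglycan, the protein of myoclonus-dystonia, Actb is beta-actin, and Col6a3 is a collagen VI chain. Of these 4 genes Tubb4a fell in cerebellum, and none was called in striatum by edgeR, DESeq2 or limma-voom, with 0 at an unadjusted p under 0.05.

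Tubb4a (chromosome 17, 57080066 to 57087782, GRCm38) stood at 836, 934, 986 and 934 CPM in WT cerebellum. In cKO cerebellum it stood at 825, 775, 759 and 785 CPM. All 4 cKO values lay below all WT values, with WT replicate 1 and cKO replicate 1 close to each other. Tubb4a fell to 85.2% of WT (log2 fold change −0.23, SE 0.049, adjusted p = 0.00778 by edgeR), with an adjusted p of 0.00111 to 0.0336 when 1 library was left out. In striatum it stood at 532, 523 and 555 CPM in WT and at 406, 537 and 433 CPM in cKO. One cKO value lay inside the WT range there and the other 2 below it, and a log2 fold change of nearly the same size, −0.23, did not pass (SE 0.114, adjusted p = 0.732). Beta-tubulin genes are highly similar in sequence, so reads shared between them may be split or lost in this count.

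Markers of mature oligodendrocytes were lower in cKO beside Tubb4a. Their summed level over 12 genes was 5230 to 5764 CPM in WT cerebellum and 4568 to 5136 CPM in cKO, with all 12 at a lower level and 7 called lower. In striatum it was 7490 to 9182 CPM in WT and 4761 to 5923 CPM in cKO, with all 12 at a lower level and 4 called lower. None of the 12 was at 0 in any group. Their part in the result for Tubb4a was not tested, and in bulk tissue fewer cells of a type and less RNA per cell cannot be told apart.

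Sgce levels lay close together in the genotypes. The gene stood at 32.2, 38.2 and 33.4 CPM in WT striatum and 34.4, 33.8 and 35.3 CPM in cKO striatum. Its cerebellar levels were 32.6, 32.6, 32.6 and 32.2 CPM in WT and 33.6, 31.3, 33.5 and 31.9 CPM in cKO. The cKO level was 99.7% of WT in striatum (95% interval 84.9% to 117%) and 100.3% in cerebellum (93.9% to 107%), with overlap in both. Col6a3 was among the genes with few counts, at 1.45, 2.21, 1.59 and 1.74 CPM in WT cerebellum and 2.53, 2.07, 1.95 and 1.75 CPM in cKO. Its log2 fold change of 0.24 there (SE 0.185, adjusted p = 0.481 by edgeR) was among the 3 largest of the set and did not pass, and the groups overlapped. In striatum it was −0.30. The summed level of 7 meningeal and mural markers was 207 to 256 CPM in WT cerebellum and 298 to 358 CPM in cKO, with 2 called higher and none at 0; their part in the Col6a3 value was not tested. Actb had log2 fold changes of 0.13 and 0.00, and its copies in the genome make that count uncertain.

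As among all genes, more of the set was called between the 2 brain regions than between genotypes. In WT samples 24 of 36 genes were called between striatum and cerebellum (66.7%), against 64.2% of 15031 genes tested, and 26 (72.2%) were at an unadjusted p under 0.05, against 67.3% of all genes. Of the 24, 14 were higher in striatum (31.5% of all genes were) and 10 lower (32.7%). The library totals of the tissues do not overlap, so tissue cannot be told apart from library depth or from any batch that went with it. CPM were scaled over all 14 libraries here, and a positive log2 ratio is higher in striatum.

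Adcy5 stood at 1818 to 2093 CPM in WT striatum and at 52.5 to 68.7 CPM in WT cerebellum, 34.4-fold higher in striatum (log2 ratio 5.10, adjusted p = 9.23e-10 by edgeR). Hpca was 30.0-fold higher (log2 ratio 4.91, adjusted p = 2.15e-09), Ano3 8.46-fold (3.08, adjusted p = 6.89e-09) and Gnal 6.58-fold (2.72, adjusted p = 2.81e-09). In each of these 4 genes all WT striatal libraries lay above all WT cerebellar libraries. Cox20 had the largest ratio in favour of cerebellum, −1.86 (adjusted p = 0.000225), followed by Prkra at −1.46 (5.74e-06) and Prrt2 at −1.08 (1.99e-06). The WT striatal level of Cox20 was 6.68, 18.6 and 14.9 CPM, with the lowest value in WT replicate 1, against 46.5 to 50.8 CPM in WT cerebellum. Of the 3 genes that differed between genotypes in cerebellum, Prrt2 and Tubb4a (log2 ratio −0.62) were thus higher in cerebellum and Ano3 was higher in striatum.

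By role, all 3 G protein and cAMP genes were higher in striatum, where 31.5% of all genes were higher and 32.7% lower. Of 6 channel, calcium and release genes 3 were higher and 2 lower. Of 4 cytoskeleton, sarcoglycan and matrix genes 3 were higher and 1 lower. Of 5 mitochondrial, lipid and glucose genes 2 were higher and 2 lower, and of 5 endolysosomal genes 2 and 1. Among 3 transcription and stress kinase genes 0 were higher and 2 lower. Of the tetrahydrobiopterin and dopamine genes Ddc was higher (log2 ratio 1.37), while Th (0.10, adjusted p = 0.627 by edgeR) and Gch1 (0.20, 0.554) were not called. Among the torsin group Tor1aip1 (−0.33) and Tor1b (−0.21) were lower in striatum, and Tor1a (−0.15, adjusted p = 0.265) and Tor1aip2 (0.07) were not called. Kmt2b was lower (−0.28, adjusted p = 0.036) and Sgce higher (0.25, adjusted p = 0.0189) in striatum. The calls of Tor1b, Kmt2b and Sgce were lost without striatal WT replicate 2 and without 3 or 4 of the other WT libraries, each left out in turn, and that of Tor1aip1 without striatal WT replicate 2 or 3. Without striatal WT replicate 1 all 24 calls stood and Qdpr, Pts and Atp13a2 were called besides.

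Levels can be compared between genes only per length, here as CPM per kilobase of annotated exon. In WT striatum Hpca was the most abundant, at 516 ± 82.9 CPM per kilobase (SD, n = 3), followed by Actb at 428 ± 67.6, Adcy5 at 273 ± 19.2 and Tubb4a at 254.5 ± 8.73. Hpca and Actb lay closer together than the sum of their SDs, and so did Adcy5 and Tubb4a. In WT cerebellum Tubb4a led at 398 ± 28.0 CPM per kilobase (SD, n = 4), then Actb at 207 ± 12.9 and Prrt2 at 155 ± 8.80, apart from each other by more than their SDs. Adcy5 ranked 3 of 37 in striatum and 25 of 37 in cerebellum. Tor1a stood at 11.2 ± 1.99 and 12.6 ± 0.48 CPM per kilobase. At the bottom in both regions were Slc6a3, Gch1 and Col6a3, at 0.207 ± 0.0179 and 0.184 ± 0.052 CPM per kilobase for Gch1.

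**Figure D4:**
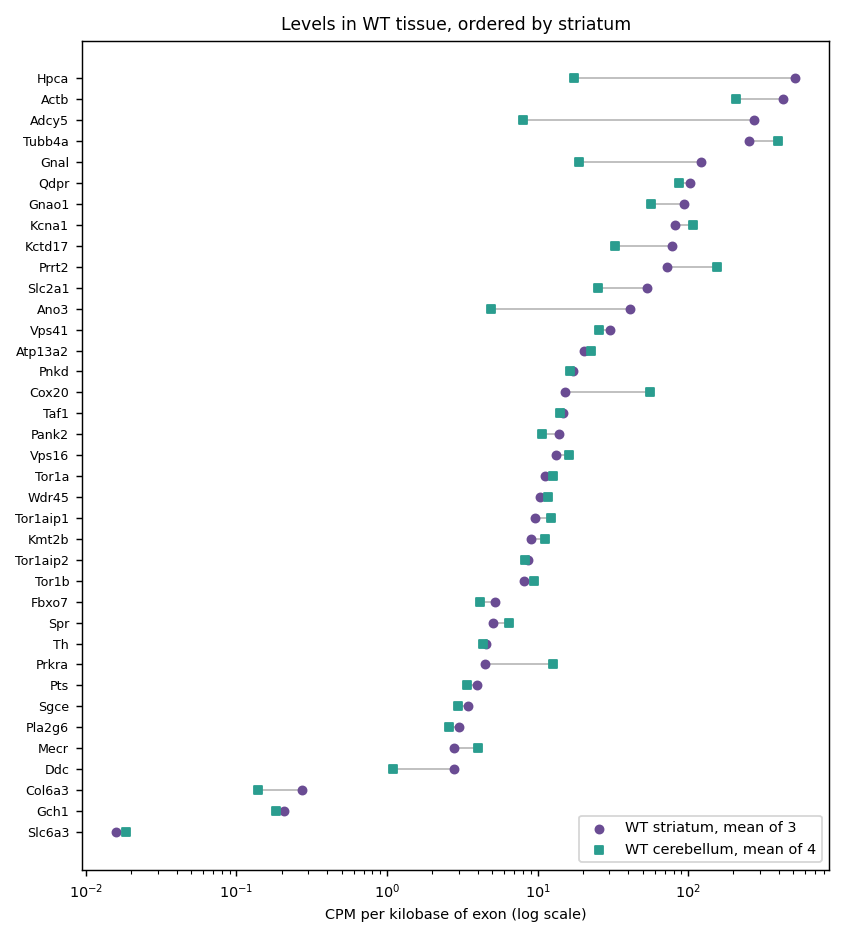
Level of each gene in WT striatum and WT cerebellum, in CPM per kilobase of annotated exon on a logarithmic axis, with the mean of the libraries per tissue. Hpca, Adcy5, Ano3 and Gnal stand far apart between the tissues, while Tor1a, Sgce, Th and Taf1 lie nearly together.

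The plot of levels per length spans the set from Slc6a3 near 0 to Hpca in striatum and Tubb4a in cerebellum.

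Other genes of the same pathways were read from lists drawn up by function. In striatum, where 0.384% of all genes were called, 1 gene on these lists was called, Fa2h, a fatty acid hydroxylase of myelin lipids mutated in a form of brain iron accumulation. It fell to 55.8% of WT (57.6 ± 9.31 to 32.1 ± 2.49 CPM, SD, n = 3 each; adjusted p = 0.0431 by edgeR). In cerebellum, where 7.59% were called, Fa2h fell to 76.3% of WT, from 38.8 ± 2.51 to 29.6 ± 1.52 CPM (SD, n = 4 each; adjusted p = 3e-04). The striatal call was lost without WT replicate 3, without any 1 of the cKO libraries, with sex as covariate and with the replicate block (adjusted p up to 0.356 without 1 library), while the cerebellar call was made in all 16 alternatives. Fa2h fell beside the oligodendrocyte markers given above, whose part was not tested.

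Of 10 other torsin and nuclear envelope genes 3 fell in cerebellum, where 4.96% of all genes fell. These were Syne2 (log2 fold change −0.36, adjusted p = 1.61e-05 by edgeR), Syne1 (−0.29, 0.000476) and Lmnb2 (−0.26, 0.00294). Syne1 and Syne2 encode nesprins, which tie the nucleus to the cytoskeleton, and Lmnb2 a lamin. Each was called whichever cerebellar library was left out. The median of the 10 was −0.05. None of the 10 was called in striatum by edgeR, DESeq2 or limma-voom, with 1 at an unadjusted p under 0.05 (Syne2, −0.36). Nor was the difference between the tissues called for any of them by these tools.

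Of 11 other subunits of histone H3 lysine 4 methyltransferase complexes 2 fell in cerebellum, where 4.96% of all genes fell. They are the relatives of Kmt2b listed as Mll1 (now Kmt2a, log2 fold change −0.26, adjusted p = 0.0126 by edgeR) and Mll3 (now Kmt2c, −0.14, 0.0462). The first was not called without cKO replicate 1 (adjusted p = 0.0504). The second was not called without WT replicate 1 or 3 or cKO replicate 1, 2 or 4 (up to 0.156). Of 9 other genes of brain iron and coenzyme A, besides Fa2h, Cp (ceruloplasmin) had a log2 fold change of 0.36 (adjusted p = 0.0337) and 1600014C10Rik (the mouse gene of C19orf12) of 0.16 (0.0273). Both rose, as did 2.63% of all genes, and 4 and 2 of the 8 fits with 1 cerebellar library left out kept these calls. The summed level of 7 choroid plexus markers was 34.1 to 2226 CPM in WT cerebellum and 750 to 3650 CPM in cKO, with 0 called. That of 7 astrocyte markers was 5970 to 6311 CPM and 6032 to 6697 CPM, with 3 called higher and 1 lower. The part of these markers in the Cp value was not tested.

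Of 12 other dystonia genes tested in cerebellum 2 rose (2.63% of all genes did) and 2 fell (4.96%). The manganese exporter Slc30a10 rose to 140% of WT, from 10.1 ± 1.09 to 14.1 ± 0.484 CPM (SD, n = 4 each; adjusted p = 0.00145 by edgeR), and was called in all 16 alternatives. The calcium channel gene Cacna1b fell to 86.5% of WT (adjusted p = 0.00306) and was called whichever library was left out. The potassium channel gene Kcnma1 (log2 fold change 0.13, adjusted p = 0.0494) and 2010111I01Rik, now Aopep (−0.26, 0.0245), were called in 2 and 3 of the 8 fits with 1 library left out. Kcnma1 was not called by limma-voom, and the calcium channel gene Cacna1a was called by DESeq2 and limma-voom but not by edgeR. For the difference between the tissues DESeq2 called Slc30a10, while edgeR and limma-voom called 0 of these other dystonia genes. Among the other tetrahydrobiopterin and monoamine genes, the striatal cAMP genes, the endosomal tethering subunits, the sarcoglycan complex and the parkinsonism genes, edgeR, DESeq2 and limma-voom called 0 in either tissue. At an unadjusted p under 0.05 these lists held 0, 0, 0, 1 and 0 genes in striatum, against 7.24% of all genes. There 8, 13, 6, 6 and 10 of their genes were tested. In cerebellum the lists held 0, 1, 1, 1 and 3, of 10, 11, 6, 8 and 10 tested, against 22.5% of all genes. Fitted in 1 model of all libraries, the cerebellar calls on the pathway lists were Syne2, Fa2h and Slc30a10 among the 12 named here.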

How the data were processed

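RNA-seq was read in 14 samples, 1 table of raw counts per gene each, as deposited by the authors. The submitters' processing notes name cutadapt 1.13, STAR, HTSeq 0.6.1p1, DESeq2 and the build mm10; the STAR version, annotation and strand setting used are not given there. Groups come from the sample titles.

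Counts were normalised with TMM and filtered with filterByExpr (minimum count 10, minimum total 15) in edgeR 4.0.16 (R 4.3.3). Comparisons used its robust quasi-likelihood test on all genes, with Benjamini-Hochberg adjustment and a threshold of 0.05. Genotypes were fitted within each tissue. SE is the log2 fold change over the square root of F, and 95% intervals use the t quantile of the fit. The same fits were also run on counts simulated with the means and dispersions of these data. Such counts hold no batch, outlying library or pairing, so that check does not cover these. Sex for a covariate was read from Xist and Y-linked counts. Alternatives included DESeq2 1.42.0 and limma-voom (limma 3.58.1).

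Coordinates and exon lengths are from GENCODE vM21 on GRCm38, promoters from RefSeq on GRCm38.p6. The genes, pathway lists, marker lists and tests were chosen with earlier results of these data known. Values are given in full for genes called between genotypes, for 8 genes whatever their result (Tor1a, Sgce, Gch1, Th, Gnal, Adcy5, Kmt2b and Taf1), for the 3 largest changes per tissue at a mean of at least 1 CPM, and for the 6 largest regional ratios; of each pathway list, up to 4 called genes are named.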

Additional observations from a re-analysis of the deposited data

Results flagged for a closer look

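In groups of 4 samples, single libraries were compared with the other 3 by Dixon's test at its 95% level, over 76 sets of 4 cerebellar values, and 3 stood out; chance alone marks about 1 set in 20. Tor1b was at 48.8 CPM in cKO replicate 4, against 50.7 to 51.0 CPM in the other cKO libraries. Adcy5 was at 71.7 CPM in WT replicate 2, against 54.8 to 57.2 CPM in the other WT libraries. Sgce was at 32.2 CPM in WT replicate 4, against 32.6 CPM in each of the other WT libraries, which lie unusually close together.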

How the results depend on the processing

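Striatal values are less precise, with a median SE of 0.117 over the set against 0.0493 in cerebellum. The tissues differ in the number and depth of libraries and in the spread between replicates. The calls of Ano3, Prrt2 and Tubb4a in cerebellum were made in 15 of 16 alternatives each, all but 1 model of all samples. Estimates that were not called can turn sign: over all alternatives 12 of the 37 genes did so in striatum (Slc6a3 was fitted only in the settings that keep genes with few counts), 13 in cerebellum, 10 in the difference between tissues and 2 between WT tissues, none of them called. Those given singly below are a selection narrowed after these results were seen.

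Without 1 library in turn, the genes called in striatum numbered 3 to 122 over all genes (3 without cKO replicate 1 or 3, 12 without WT replicate 3 or cKO replicate 2, 122 without WT replicate 1) and 0 to 1 in the set. In cerebellum they numbered 739 to 1165, with 739 without WT replicate 3 and 744 without cKO replicate 2. For the difference between tissues they numbered 17 to 193, and 0 to 1 in the set. All samples in 1 model gave 376 and 2 calls in striatum and 251 and 0 in cerebellum. DESeq2 gave 146 in striatum, and 232 and 1 for the difference between tissues.

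Whether the replicate numbers pair WT and cKO samples cannot be decided from these values. Deviations from the group mean of samples with the same number correlated at 0.0537 to 0.119 in striatum and 0.0764 to 0.328 in cerebellum. The own number was the best partner for 2 of 3 and 1 of 4. The sex read from Xist and Y-linked counts was the same in WT and cKO at each replicate number within a tissue. With the replicate block, 15 genes were called in striatum (0 in the set), 1246 in cerebellum (3) and 13 for the difference between tissues (0).

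Thap1 in striatum had a log2 fold change of −1.36 (adjusted p = 0.0562), which passed at −1.37 without a low-count filter, −1.37 with DESeq2, −1.42 with limma-voom and −1.36 in 1 model of all samples. Without 1 library it ran from −1.66 to −1.15 and passed without WT replicate 1. In cerebellum it was −0.34 (adjusted p = 0.0488). It did not pass at −0.34 with DESeq2's size factors, −0.33 with upper-quartile factors, −0.34 with DESeq2, −0.33 with limma-voom, −0.34 with sex as covariate, −0.35 in 1 model, or without any 1 library other than WT replicate 2 or 4 (−0.40 to −0.27).

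Signs turned near 0. In striatum Ano3 was 0.018 and Sgce 0.015 with upper-quartile factors, and Ano3 0.0013 in 1 model. Without 1 library, striatal Ano3 ran from −0.12 to 0.14, Sgce from −0.050 to 0.073, Th from −0.057 to 0.24, Kmt2b from −0.15 to 0.064 and Taf1 from −0.17 to 0.050. In cerebellum Gch1 was −0.011 with DESeq2, −0.010 with sex as covariate and −0.010 in 1 model, Th was 0.013 with limma-voom and Sgce −0.0082 in 1 model. Without 1 library, cerebellar Gch1 ran from −0.15 to 0.19, Th from −0.072 to 0.10 and Sgce from −0.0097 to 0.022. The difference between tissues for Tubb4a ran from −0.080 to 0.11, and the WT ratios of Th from −0.062 to 0.22 and Taf1 from −0.062 to 0.17. The causes were not tested.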
